A study of Mus musculus with 3 samples.

Results

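Accessibility at 8 genes of the GABAergic lineage, Gad1, Gad2, Slc32a1, Dlx1, Dlx2, Dlx5, Dlx6 and Lhx6, was measured by single-nucleus ATAC-seq, in which the transposase Tn5 cuts and tags open chromatin of separate nuclei. The genes were taken as a fixed list, 8 of 21593 protein-coding genes counted, together with the Dlx1/Dlx2 and Dlx5/Dlx6 intergenic spans, 2 of 9434 such spans between neighbouring coding genes. Nuclei came from frozen 70 µm sections of wild-type (WT) C57BL/6JRj mouse embryos collected at 3 stages of gestation (E12.5, E13.5 or E15.5), 1 library for each, and were sorted on the DNA dye 7-AAD. No treatment or allele sets the groups apart, and the number of embryos behind a library is not known here. Because each stage is 1 library, a difference between stages cannot be told apart from a difference between libraries, and the spread over libraries holds both.

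GABA, the main inhibitory transmitter of the forebrain, is made from glutamate by the decarboxylases GAD67 (Gad1) and GAD65 (Gad2) and is loaded into synaptic vesicles by the transporter VGAT (Slc32a1). In the ventral forebrain, the homeodomain factors Dlx1, Dlx2, Dlx5 and Dlx6 direct the differentiation and migration of GABAergic neurons, with Dlx1 and Dlx2 acting first in progenitors, and the LIM-homeodomain factor Lhx6 acts in interneurons born in the medial ganglionic eminence. The Dlx genes lie in convergently transcribed pairs whose intergenic spans hold forebrain enhancers, and Dlx5 and Dlx6 also act in the developing skeleton and face.

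The 3 libraries held 153 (E12.5), 970 (E13.5) and 756 (E15.5) nuclei, with a median of 30239, 62902.5 and 43485.5 unique fragments per nucleus. Library pairs shared 0, 0 and 1 cell barcodes. The authors' 12 clusters were used, without clusters 2 and 4, which leaves 10 clusters and 24 sums of a cluster and a library with at least 10 nuclei. Clusters are given by number, with marker genes as a description, since they rest on the same fragments. In cluster 0, all 11 pan-neuronal markers counted had a mean level at least 1.5 times that of the other clusters, against 2 of 16 glutamatergic genes. Cluster 6 had 14 of those 16 glutamatergic genes and 9 of the 11 pan-neuronal markers at that level, and cluster 9 had all 10 neural progenitor markers. Clusters 1 and 3 each stood high at all 6 mesenchyme markers, clusters 5 and 11 at all 6 erythroid markers, cluster 10 at all 6 muscle markers, cluster 7 at 5 of 6 epithelial markers and cluster 8 at 5 of 6 endothelial markers. No marker of any other class was at 0 in clusters 0, 6 and 9. Summed erythroid marker levels there lay between 62.0 and 117 CPM (counts per 1000000, defined below), against 434 to 753 CPM in cluster 5, and their part in the results was not tested.

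All positions are in mm10 with GENCODE M21 genes. Gad1 (chr2:70553072-70602014, plus strand), Gad2 (chr2:22622205-22693874, plus), Slc32a1 (chr2:158610767-158615748, plus), Dlx1 (chr2:71528113-71533981, plus), Dlx2 (chr2:71543408-71546754, minus) and Lhx6 (chr2:36081953-36105408, minus) all lie on chromosome 2, and Dlx6 (chr6:6863334-6868568, plus) and Dlx5 (chr6:6877805-6882085, minus) on chromosome 6. Each gene was counted over its body and 2 kb upstream, and over a promoter from 1000 bp before to 100 bp after its start. No other coding gene overlaps these windows. Antisense RNA genes do, Gad1os in Gad1, Gm14205 in Slc32a1, Dlx1as in Dlx1 and its span, and Dlx6os1 in Dlx6 and its span. ATAC fragments carry no strand. Levels are unique fragments per 1000000 fragments in gene windows (CPM) of a cluster and library, with intervals that cover counting error only.

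The genes of GABA synthesis and vesicle loading had their highest levels in cluster 0. Gad1 in cluster 0 held 239 CPM at E12.5, 132 CPM at E13.5 and 139 CPM at E15.5 (the order kept below), with 75.5, 71.6 and 49.6 CPM in cluster 9, 50.1 and 73.8 CPM at E13.5 and E15.5 in cluster 6, and from 0 to 83.0 CPM with a median of 41.3 over the 16 sums of the other 7 clusters. All 3 sums of cluster 0 stood above those of all other clusters, while those of clusters 6 and 9 overlapped the rest. In order of mean level, cluster 0 (170 ± 60.2 CPM, SD, n = 3) was followed by clusters 9, 6, 3, 10 and 7 at 65.6 to 49.5 CPM, neighbours that differed by less than their spread.

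Gad2 was also highest in cluster 0. It held 58.7, 144 and 98.7 CPM there, against 39.2, 43.4 and 47.4 CPM in cluster 9, 40.1 and 61.0 CPM in cluster 6 and 0 to 54.0 CPM, median 26.2, in the rest. No sum of the rest reached the lowest of cluster 0, which was the E12.5 sum of 11 nuclei and 38 fragments. Slc32a1 held 34.0, 59.9 and 45.5 CPM in cluster 0, 19.2 and 22.2 CPM in cluster 6 and 14.0, 13.6 and 14.7 CPM in cluster 9, and 2.57 to 27.8 CPM, median 14.3, in the rest. Here cluster 0 alone was apart, and cluster 9 lay at the median of the rest. Per kb of window, Slc32a1 had the highest mean level of the 3 genes in cluster 0, at 6.65 ± 1.86 CPM per kb, against 3.34 ± 1.18 for Gad1 and 1.36 ± 0.581 for Gad2 (SD, n = 3). The windows of Slc32a1, Gad1 and Gad2 are 6.98, 50.9 and 73.7 kb long, so this order is the reverse of their order by length.

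**Figure D1:**
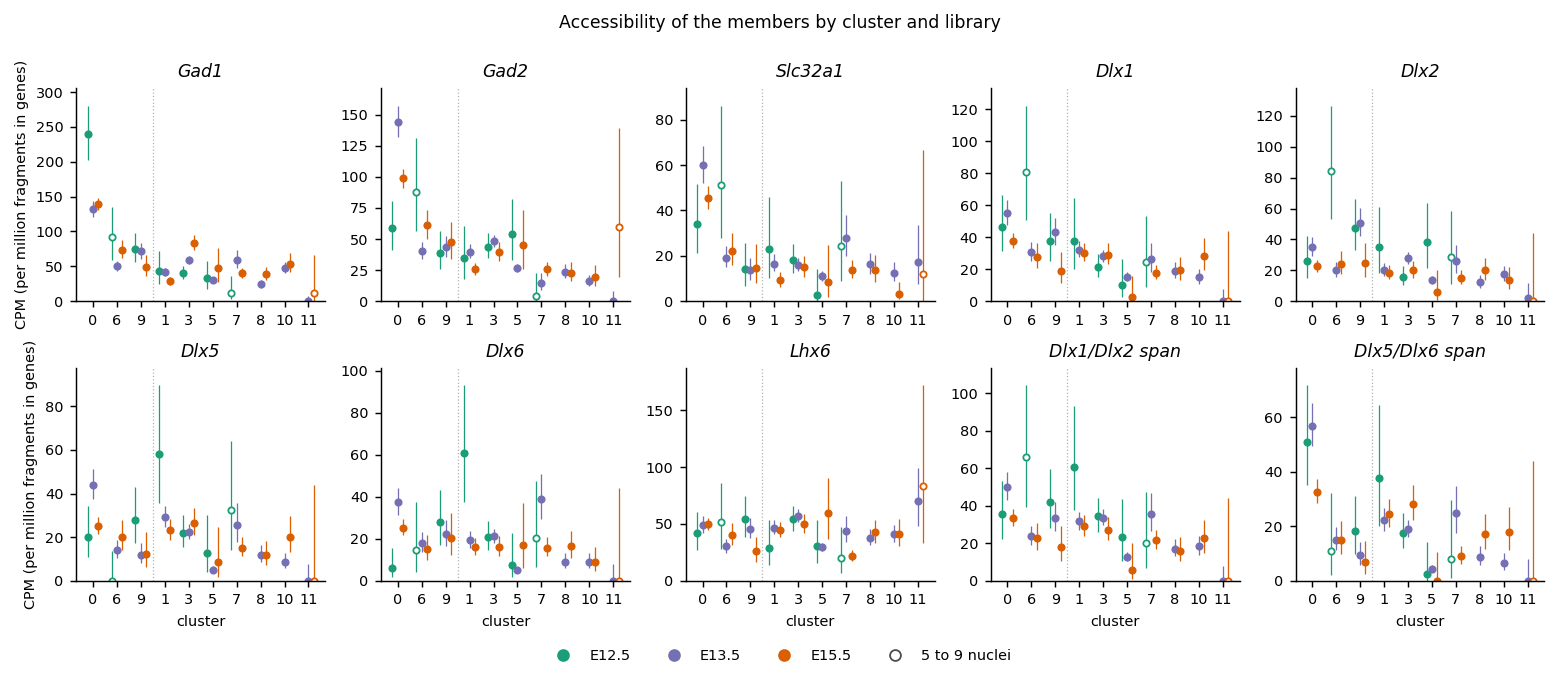
Levels of the 8 genes (body and 2 kb upstream) and both Dlx spans by cluster, in CPM of fragments in gene windows, with a point per library (E12.5, E13.5, E15.5), 95% counting intervals and open points for sums of 5 to 9 nuclei. Clusters 0, 6 and 9 stand left of the dotted line. Gad1, Gad2, Slc32a1 and Dlx1 have all 3 filled points of cluster 0 above those of clusters 1 to 11 at right, and Lhx6 does not.

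Across clusters, edgeR's quasi-likelihood test was fitted to the sums of all 19688 genes that passed a filter on low counts, with the library as block. All 8 genes and both spans passed the filter, and 7 of the 8 gene bodies passed the test as higher in clusters 0, 6 and 9 than in the rest, where 20% of all genes did so. Cluster 0 alone against the rest also gave 7 of 8 calls (background 15.9%), cluster 6 gave 3 (background 12.1%) and cluster 9 gave 5 (background 12.46%). Lhx6 was called in none. Without the E13.5 library, the deepest, 3 of 8 genes (Gad1, Gad2 and Slc32a1) stayed called in clusters 0, 6 and 9 (6.11% of all genes in either direction) and in cluster 0 alone (3.55%), and none in cluster 9. That fit also loses cluster 11, which reached 10 nuclei only at E13.5, and keeps only the E15.5 sums of clusters 6, 7, 8 and 10. The fewer calls thus cannot be set down to that library's depth, and a fit without cluster 11 alone is given below. Without E15.5 there were 6 calls in clusters 0, 6 and 9 and 7 in cluster 0 alone, with the share over all genes not given here. Every sum of cluster 0 lay above every sum of the rest for 4 of the 8 genes (Gad1, Gad2, Slc32a1 and Dlx1), a pattern that 1.95% of genes had. For Gad1 this rests on 1 E12.5 nucleus (described below), and Dlx1 cleared the rest by a narrow margin, 37.83 against 37.72 CPM.

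Cluster 11, 35 nuclei of the E13.5 library with high erythroid markers, had 0 fragments at Gad1, Gad2, Dlx1, Dlx5, Dlx6 and both spans, and 1 at Dlx2. At its depth a count of 0 allows up to 6.41 CPM, taken as 3 counts. As fitted folds against such a sum depend on the prior count, fold changes below come from a fit without cluster 11, added after the data were seen, with calls of the fit with it beside them where they differ, and backgrounds are those of the fit with cluster 11 unless stated. In that fit 5 of the 8 gene bodies stayed called in clusters 0, 6 and 9, all but Dlx5, Dlx6 and Lhx6, where 11.7% of all genes were called higher. In cluster 6 the calls fell from 3 to 1, Gad2 (background 5.81%), and in cluster 9 from 5 to 1, Dlx2. Leaving it out also moved the median log2 fold change of all genes in that comparison from 0.10 to -0.01.

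**Figure D2:**
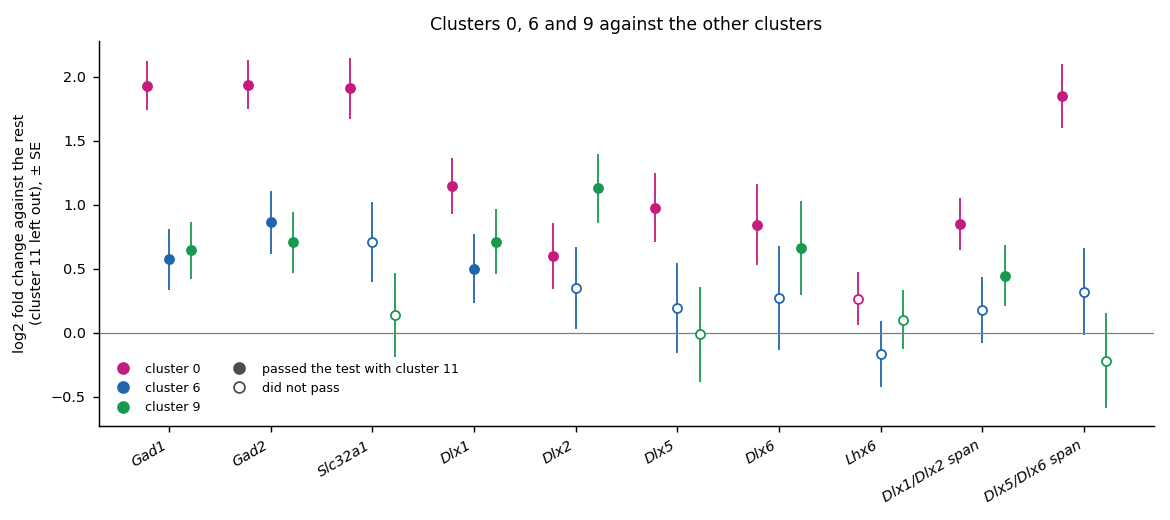
Log2 fold change of cluster 0, 6 or 9 against the other clusters, cluster 11 left out, for each gene body and both Dlx spans, as points with SE. Filled points passed the test in the fit with cluster 11 (adjusted p at most 0.05) and open points did not, with cluster 0 nearly level at 1.93, 1.94 and 1.91 for Gad1, Gad2 and Slc32a1, and lower for the Dlx genes.

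Against the rest, Gad1 was 3.82-fold higher in cluster 0 (log2 1.93, SE 0.19, edgeR adjusted p = 5.18e-09). Gad2 was 3.84-fold higher (log2 1.94, SE 0.19, edgeR adjusted p = 5.18e-09) and Slc32a1 was 3.76-fold higher (log2 1.91, SE 0.24, edgeR adjusted p = 2.65e-07). Set against cluster 9 directly, cluster 0 was 2.44-fold higher at Gad1 (edgeR adjusted p = 0.00528), 2.35-fold at Gad2 (0.0115) and 3.42-fold at Slc32a1 (0.00508), so 3 of 8 genes were called where 0.662% of all genes were, as they were with cluster 11 (background 0.686%). Without the E13.5 or the E15.5 library none of the 3 passed, with estimates of 0.88 to 1.81 on the log2 scale.

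The E12.5 value of Gad1 rested on a single nucleus. Of its 155 fragments, 120 (77.4%) came from the deepest of the 11 nuclei, which held 17.5% of all fragments of that sum. These fragments started in 39 of the 51 1 kb bins of the Gad1 window, so they were not piled on a single site, and the nucleus had a median of 3 fragments per occupied 50 kb bin. Without that nucleus the E12.5 level of Gad1 fell from 239 to 63.7 CPM (95% interval 44.4 to 88.6, 35 fragments), which lies within the rest. The log2 fold change of cluster 0 against the rest was then 1.5 (SE 0.19, edgeR adjusted p = 3.18e-07), while that of cluster 0 against cluster 9 was 0.75 (SE 0.27) and no longer passed (edgeR adjusted p = 0.157).

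Estimated fold changes of cluster 0 were larger at the Gad2 and Slc32a1 promoters than over their bodies. The Gad2 promoter held 3.09, 13.7 and 11.9 CPM in cluster 0, 5.44 and 6.10 CPM in cluster 6, and 4.20, 4.69 and 3.38 CPM in cluster 9. The Slc32a1 promoter held 1.55, 22.8 and 15.7 CPM in cluster 0, 0.859 and 3.33 CPM in cluster 6 and 1.40, 3.83 and 0 CPM in cluster 9. At both promoters the E13.5 and E15.5 sums of cluster 0 were far above, and the E12.5 sum, with 2 and 1 fragments, was not. The 5 nuclei of cluster 6 at E12.5, too few to enter the tests, held 5 fragments at each promoter, or 18.3 CPM. The Gad2 promoter was 6.81-fold (edgeR adjusted p = 3.87e-10) and the Slc32a1 promoter 6.76-fold (edgeR adjusted p = 1.43e-12) higher in cluster 0 than in the rest.

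Of 7 member promoters tested, 6 were called higher in cluster 0 than in the rest (background 15.8%), all but Lhx6, and the same 6 without cluster 11 (background 11.2%). Without the E13.5 library, where 6.86% of promoters were called in either direction, 2 stayed called, Gad2 (edgeR adjusted p = 0.0026) and Slc32a1 (0.002), and without either of the others 6 did. In clusters 0, 6 and 9 together 5 of 7 were called (background 18.6%), 1 without the E13.5 library (8.17% of promoters in either direction) and 3 without the E15.5 library, and 2 without cluster 11 (background 13%), Gad2 at 3.68-fold (edgeR adjusted p = 2.83e-06) and Dlx2 at 1.97-fold (edgeR adjusted p = 0.000225). Shares over all promoters without the E12.5 or the E15.5 library are not given here. The Gad1 promoter window, set at the 5′ end of the gene record, was too low to test, at 0, 1.10 and 1.17 CPM in cluster 0. In the RefSeq promoter table, which held 6 of the 8 genes (Dlx5 and Dlx6 were not matched), the Gad1 promoter lies at chr2:70561879-70562178, where cluster 0 had 78 insertions. The Dlx1 promoter window, chr2:71527113-71528212, was likewise set at the start of the gene record. It lies upstream of the RefSeq promoter of Dlx1 (chr2:71529195-71529494), so its call is not a call at that start.

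Between clusters 0 and 6, the Slc32a1 promoter had the largest log2 difference of the 7 promoters tested. It was the only one of 15580 tested that was called higher in cluster 0 than in cluster 6 (0.00642%), with a log2 difference of 3.33 (SE 0.60, edgeR adjusted p = 0.00012) in the fit with cluster 11. DESeq2 did not call it, nor did edgeR without the E13.5 or without the E15.5 library. Its window of most insertions, chr2:158610501-158610800 at the first exon, held 184 insertions in cluster 0, or 16.6 insertions per 1000000 gene fragments (IPM, 3 libraries pooled, 95% interval 14.3 to 19.1), against 1.08 IPM in cluster 6 (0.396 to 2.35, 6 insertions) and 1.01 IPM in cluster 9 (0.276 to 2.59, 4 insertions). The window was chosen for its count over these 3 clusters, so these levels are a description and add nothing to the promoter test. At E12.5 it held 0 insertions in cluster 0 and 2 in cluster 6, so the cluster 0 value came from E13.5 and E15.5. Cluster 11 reached 16.1 IPM from 9 insertions (7.35 to 30.5), an interval that covers the value of cluster 0, and the other 6 clusters of the rest lay at 0.689 to 3.05 IPM. The 250 bases just before the RefSeq start are shown because this promoter carries that difference, on the plus strand of GRCm38.p6 at chr2:158610508-158610757, from 5′ to 3′.

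Slc32a1 upstream: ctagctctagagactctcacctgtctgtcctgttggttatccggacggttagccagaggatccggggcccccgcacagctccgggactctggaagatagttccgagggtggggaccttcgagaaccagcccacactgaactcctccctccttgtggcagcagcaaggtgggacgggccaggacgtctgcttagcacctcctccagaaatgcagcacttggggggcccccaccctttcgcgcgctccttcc

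It holds none of the 3 motifs searched on both strands. These were TAATT, the core bound by many homeodomain factors, then TAATTA, an extended form that contains it, and last CAGCTG, an E-box bound by proneural basic helix-loop-helix factors. Among 27025 RefSeq promoters of 300 bp, 27.3% hold TAATT, 5.31% TAATTA and 16.1% CAGCTG. No match says only that these letters are absent from the window.

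In Gad1, the window of most insertions lay within a Gad1 intron, at chr2:70558251-70558550, 3641 bp from the nearest annotated coding start and inside an intron of Gad1os. This window lies upstream of the RefSeq promoter of Gad1 (chr2:70561879-70562178). It is intronic in the GENCODE record, which starts further upstream. It held 12.7 IPM (95% interval 10.7 to 15) in cluster 0, 6.83 in cluster 6, 6.33 in cluster 9, 5.03 in cluster 1 and 0.747 in cluster 5. As the window was chosen for its count over clusters 0, 6 and 9, its level there is a description. Its plus-strand sequence is printed because it is the most accessible stretch of Gad1 in these clusters, with each TAATT of either strand and each CAGCTG in capitals.

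Gad1 intron: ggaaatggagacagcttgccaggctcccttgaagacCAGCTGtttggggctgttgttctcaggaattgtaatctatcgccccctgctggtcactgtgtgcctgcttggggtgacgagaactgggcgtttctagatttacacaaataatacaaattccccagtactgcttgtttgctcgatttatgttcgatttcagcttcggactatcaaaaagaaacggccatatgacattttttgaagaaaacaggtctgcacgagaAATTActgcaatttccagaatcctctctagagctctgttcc

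It holds 1 TAATT and 1 CAGCTG, read as a description of its letters and not as bound sites.

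Dlx1 and Dlx2, the pair that acts early in the lineage, had flatter profiles than the GABA genes. Dlx1 held 46.4, 55.2 and 37.8 CPM in cluster 0, 37.8, 43.0 and 19.2 CPM in cluster 9, 30.6 and 27.7 CPM in cluster 6, and 37.7, 32.2 and 30.2 CPM in cluster 1. Cluster 0 lay above all sums of the rest, with cluster 1 at E12.5 just below its lowest value. Dlx2 held 26.3, 35.2 and 22.6 CPM in cluster 0, 20.1 and 24.4 CPM in cluster 6 and 47.6, 50.7 and 24.8 CPM in cluster 9. Its order was led by cluster 9 (41.0 ± 14.1 CPM, n = 3), then cluster 0 (28 ± 6.47 CPM, n = 3), and both overlapped the rest, which ran from 2.14 to 38.5 CPM.

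In the fit without cluster 11, Dlx1 was 2.22-fold higher in cluster 0 than in the rest (log2 1.15, SE 0.22, edgeR adjusted p = 0.000281). Dlx2 was 2.19-fold higher in cluster 9 (log2 1.13, SE 0.27, edgeR adjusted p = 0.00486), the only member body still called there (background 5.94%). For Dlx2 in cluster 0 the log2 difference of 0.60 (SE 0.26) was not past the threshold (edgeR adjusted p = 0.136), though it was with cluster 11 (0.0117). Between clusters 0 and 9, Dlx2 differed by -0.53 on the log2 scale (95% interval -1.20 to 0.14, edgeR adjusted p = 0.533), so neither an equal level nor a higher one in cluster 9 was shown.

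The Dlx1/Dlx2 span (chr2:71533982-71543407) held 35.5, 50.3 and 33.6 CPM in cluster 0, 23.8 and 22.7 CPM in cluster 6, 42.0, 33.6 and 18.0 CPM in cluster 9, and 60.9, 31.6 and 29.2 CPM in cluster 1. Cluster 1 at E12.5, 10 nuclei, had the highest sum, so the groups overlapped. Both Dlx spans were called higher in clusters 0, 6 and 9 than in the rest among 8814 spans tested (background 11.7%), and in cluster 0 alone (background 7.98%), where the Dlx1/Dlx2 span was 1.80-fold higher (log2 0.85, SE 0.20, edgeR adjusted p = 0.00348). Without the E13.5 library, or without clusters 3, 5 and 11, 0 of the 2 spans were called in clusters 0, 6 and 9, and in cluster 0 alone the Dlx1/Dlx2 span did not pass without E13.5 (edgeR adjusted p = 0.629). In cluster 9 the Dlx1/Dlx2 span was called (background 6.33%) but not without cluster 11 (edgeR adjusted p = 0.369).

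Within this span the 300 bp window with most insertions over clusters 0, 6 and 9 was chr2:71537801-71538100, 8803 bp from the Dlx2 start and over an exon of Dlx1as. It took 104 of the 1396 insertions of the span (7.45%), and its count ranked 3596 of 9320 such windows, 1 per span, so it is no exceptional peak. Pooled over libraries it held 6.84 IPM in cluster 0 (95% interval 5.39 to 8.57), 2.69 in cluster 6 (1.51 to 4.44), 3.29 in cluster 9 (1.75 to 5.63), 2.97 in cluster 3, 2.37 in cluster 7, 1.31 in cluster 1 (0.678 to 2.29) and 0.320 in cluster 5 (0.0660 to 0.936). Of its 104 insertions 76 came from cluster 0, and since the window was chosen for that sum, the higher level of cluster 0 there is a description. The plus strand of this window, the most open stretch between Dlx1 and Dlx2 in clusters 0, 6 and 9, is printed with each TAATT of either strand in capitals.

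Dlx1/Dlx2 span window: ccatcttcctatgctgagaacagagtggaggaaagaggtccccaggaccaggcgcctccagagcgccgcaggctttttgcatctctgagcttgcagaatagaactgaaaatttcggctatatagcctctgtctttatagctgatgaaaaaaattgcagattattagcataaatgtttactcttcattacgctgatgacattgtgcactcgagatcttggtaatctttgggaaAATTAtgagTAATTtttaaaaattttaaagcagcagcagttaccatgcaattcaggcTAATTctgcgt

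It holds TAATT 3 times. Of the 9320 most accessible 300 bp windows of intergenic spans, 27.7% hold TAATT at least once and 9.90% at least 2 times. A TAATTA, held by 4.91% of those windows, counts as 2 there because it reads TAATT on each strand. The Dlx1/Dlx2 window holds no TAATTA, so the 9.90% is not a like background for its separate sites.

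Dlx5 and Dlx6 had their highest mean levels in cluster 1, where mesenchyme markers were high. This lead came from the E12.5 sum of cluster 1, of 10 nuclei. At E13.5 and at E15.5 both genes were higher in cluster 0 than in cluster 1. Dlx5 held 20.1, 44.0 and 25.2 CPM in cluster 0, 14.3 and 20 CPM in cluster 6, 28, 11.9 and 12.4 CPM in cluster 9 and 58.0, 29.0 and 23.1 CPM in cluster 1. Dlx6 held 6.18, 37.4 and 25.4 CPM in cluster 0, 18.0 and 15 CPM in cluster 6, 28, 22.1 and 20.3 CPM in cluster 9, and 60.9, 19.4 and 16 CPM in cluster 1. Cluster 7, with high epithelial markers, held 39.2 and 15.8 CPM of Dlx6 at E13.5 and E15.5. For both genes the E12.5 sum of cluster 1 was the highest of all 24 and the E12.5 sum of cluster 0 was its lowest. Cluster 1 led the order of means at Dlx5 (36.7 ± 18.7 CPM) and Dlx6 (32.1 ± 25 CPM, n = 3), with a spread that covers cluster 0 at 29.8 ± 12.6 and 23.0 ± 15.7 CPM (n = 3), which was next at Dlx5 but followed clusters 7 (27.5 CPM) and 9 (23.5 CPM) at Dlx6.

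Dlx5 was 1.97-fold higher in cluster 0 than in the rest without cluster 11 (log2 0.98, SE 0.27, edgeR adjusted p = 0.0112). Dlx6 had a log2 difference of 0.84 (SE 0.31, edgeR adjusted p = 0.0748), called only with cluster 11 (0.00457). For clusters 0, 6 and 9 together, both were called with cluster 11 and neither without it, at log2 0.39 (SE 0.22) for Dlx5 (edgeR adjusted p = 0.227) and 0.59 (SE 0.25) for Dlx6 (0.0882). Their promoters were higher in cluster 0 by 3.42-fold for Dlx5 (edgeR adjusted p = 5.3e-07) and 2.22-fold for Dlx6 (0.00232). At the Dlx5 start, the most accessible window (chr6:6881951-6882250, first exon) held 16.1 IPM in cluster 0, 13.6 in cluster 1, 8.10 in cluster 7, 5.06 in cluster 9 and 2.34 in cluster 6.

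Of the 4 Dlx genes and their spans, the Dlx5/Dlx6 span (chr6:6868569-6877804) had the largest fold in cluster 0. It held 51, 56.9 and 32.7 CPM there, 14.9 and 15 CPM in cluster 6, 18.2, 9.37 and 6.77 CPM in cluster 9, 37.7, 22.2 and 24.5 CPM in cluster 1 and 2.57, 4.29 and 0 CPM in cluster 5. Of the 8 sums of clusters 0, 6 and 9, those of cluster 0 were the highest, and cluster 1 at E12.5 overlapped them. The span was 3.61-fold higher in cluster 0 than in the rest (log2 1.85, SE 0.25, edgeR adjusted p = 2.79e-07). Against cluster 9 it was 4.20-fold higher (log2 2.07, SE 0.40, edgeR adjusted p = 0.00124), with 0.170% of spans called. Without the E13.5 library the span stayed called against the rest (edgeR adjusted p = 0.00377) but not against cluster 9, where the log2 difference was 1.76 (SE 0.56, edgeR adjusted p = 0.294). No span of any kind was called higher in cluster 0 than in cluster 6 by edgeR (background 0%), with 439 of 8814 at an unadjusted p under 0.05 in either direction, and the log2 difference of the Dlx5/Dlx6 span was 1.53 (95% interval 0.74 to 2.32, edgeR adjusted p = 0.105).

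Its window of most insertions was chr6:6874151-6874450, 7784 bp from the Dlx5 start, outside the antisense RNA genes there, with 84 of 1162 insertions (7.23%) and rank 3932 of 9320. It held 6.03 IPM in cluster 0 (95% interval 4.68 to 7.66), 4.94 in cluster 7 (3.19 to 7.29), 3.61 in cluster 3 (2.63 to 4.83), 3.17 in cluster 1, 2.53 in cluster 9 and 1.26 in cluster 6 (0.506 to 2.59). The interval of cluster 0 overlapped those of clusters 7 and 3 here. The plus strand is printed as the counterpart of the Dlx1/Dlx2 window, with no letters in capitals because none of the 3 motifs occurs.

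Dlx5/Dlx6 span window: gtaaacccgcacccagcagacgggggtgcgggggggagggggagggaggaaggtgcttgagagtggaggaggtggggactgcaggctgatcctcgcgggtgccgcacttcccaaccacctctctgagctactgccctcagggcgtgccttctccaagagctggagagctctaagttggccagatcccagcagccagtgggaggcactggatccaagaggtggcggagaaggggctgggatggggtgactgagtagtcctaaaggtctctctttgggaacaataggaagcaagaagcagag

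The contrast with the Dlx1/Dlx2 window extends to base composition, since 61.7% of these bases are G or C against 41.0% there.

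**Figure D3:**
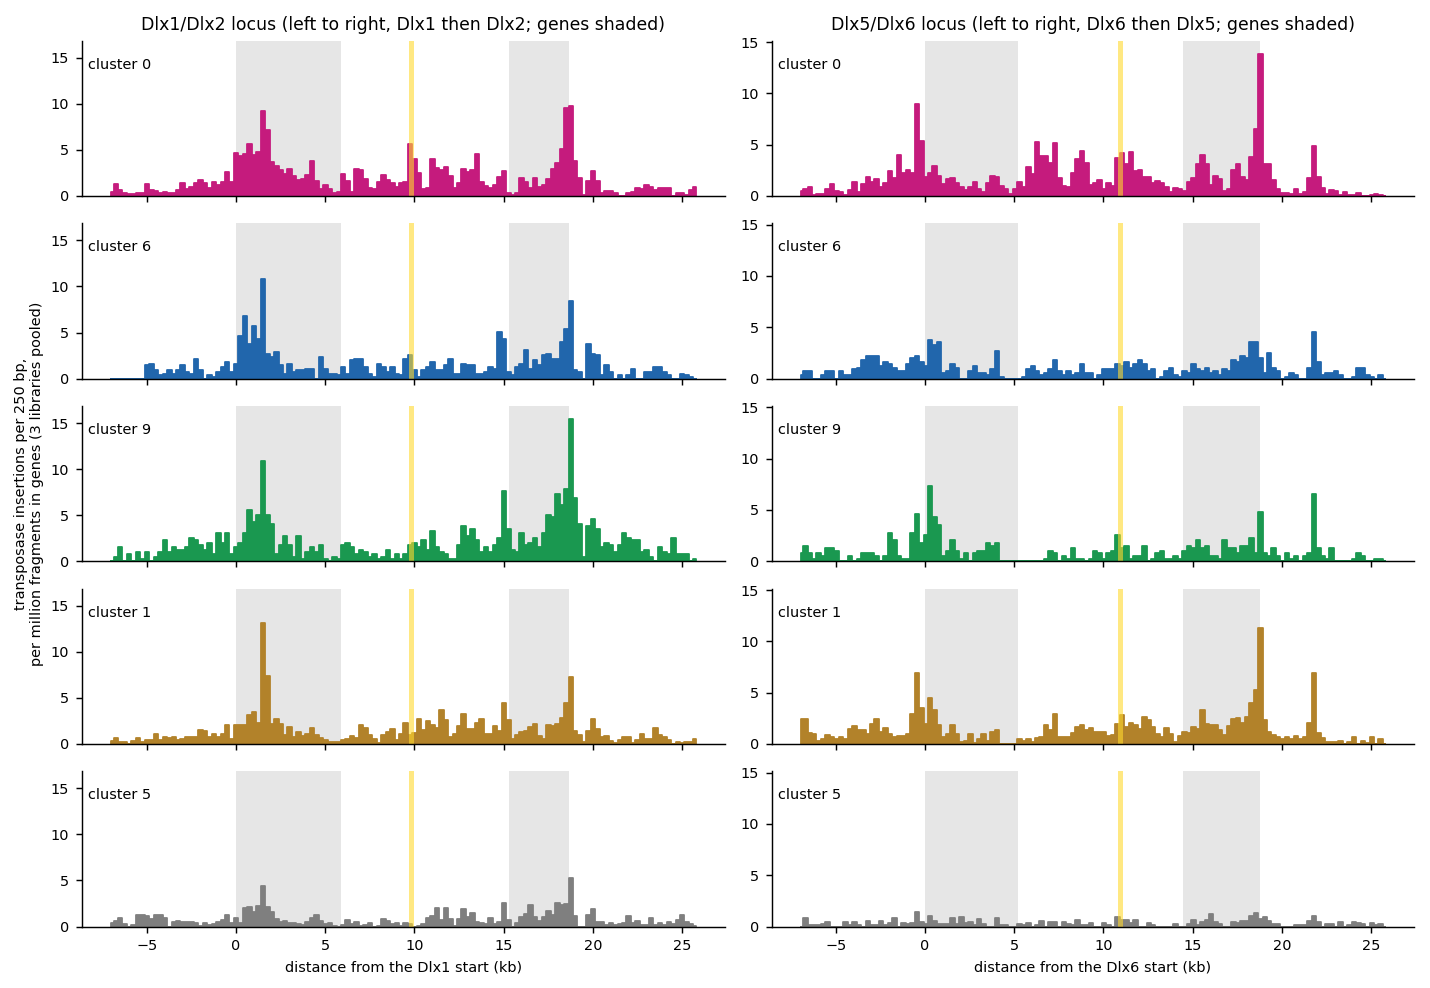
Transposase insertions per 250 bp, scaled to 1000000 gene fragments, 3 libraries pooled, along both Dlx loci in clusters 0, 6, 9, 1 and 5, against distance in kb from the Dlx1 start (left) or the Dlx6 start (right). Grey marks the genes and yellow the span windows described in the text, where cluster 0 held 6.84 and 6.03 IPM per 300 bp. Signal at the gene starts is seen in cluster 1 as well as in cluster 0, and in cluster 5 at the starts of Dlx1 and Dlx2 (5.55 and 5.02 IPM per 300 bp).

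Lhx6, a marker of interneurons of the medial ganglionic eminence, had overlapping levels across clusters over its body. It held 41.7, 48.9 and 49.6 CPM in cluster 0, 30.4 and 40.5 CPM in cluster 6, 54.5, 45.6 and 25.9 CPM in cluster 9 and 21.7 to 70.5 CPM, median 43.4, in the rest. Clusters 0, 6 and 9 differed from the rest by 0.07 on the log2 scale (SE 0.15, edgeR adjusted p = 0.815), and cluster 0 alone by 0.27 (SE 0.21, edgeR adjusted p = 0.479). The highest level was in cluster 11, at 70.5 CPM from 33 fragments in 11 of 35 nuclei. The 300 bp window with most insertions in clusters 0, 6 and 9 was chr2:36091301-36091600, with 114 of 1805 (6.32%). This window overlaps an Lhx6 exon and held 60.7 IPM in cluster 11 (95% interval 42.0 to 84.8, 34 insertions), against 2.99 to 7.79 in the other 9 clusters. At the Lhx6 promoter, cluster 0 held 3.09, 4.95 and 5.43 CPM, cluster 6 held 1.72 and 2.22 CPM and cluster 9 held 4.20, 0.852 and 1.13 CPM. Its log2 difference of cluster 0 against cluster 9 there was 1.84 (SE 0.73), not past the threshold (edgeR adjusted p = 0.145). The Slc32a1 level of cluster 11, 17.1 CPM, came from 8 fragments, 7 of them in 1 nucleus.

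Between clusters 0 and 6, no member body passed the test, and edgeR called 0 genes higher and 7 lower among all tested (background 0%), with 926 genes at an unadjusted p under 0.05. DESeq2 called 1 of the 8 members, Gad1, and the share of all genes that it called is not given here. Estimates were higher in cluster 0 for all 8 members, from log2 0.25 (95% interval -0.51 to 1.01) at Dlx2 to 1.36 (0.76 to 1.96) at Gad1, with edgeR adjusted p = 0.0921 for Gad1, 0.342 for Gad2 and 0.49 for Slc32a1. Without the E12.5 nucleus that held most Gad1 fragments, which was part of the sums DESeq2 was given, the estimate for Gad1 was 0.98 (SE 0.29, edgeR adjusted p = 0.387). The test thus does not show clusters 0 and 6 to be alike at these genes. The median log2 difference was 0.72 over the members and 0.01 over all genes. Of 16 glutamatergic genes, 2 were called lower in cluster 0, among them Neurod2 by 2.09 (SE 0.40) on the log2 scale.

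Clusters 6 and 9 gave 0 calls among the members (background 0.0813%), with log2 differences from -0.78 (95% interval -1.57 to 0.0034) at Dlx2 to 0.57 (-0.26 to 1.41) at Slc32a1. At Dlx5 the promoter was 1.83 higher on the log2 scale in cluster 0 than in cluster 9 (SE 0.49, edgeR adjusted p = 0.0095), and with Slc32a1 it made 2 of 7 promoters called (background 1.10%). Neither passed without the E13.5 or without the E15.5 library. Without E12.5, 3 promoters passed, Lhx6 being the other (edgeR adjusted p = 0.0479), with the share over all promoters of that fit not given here.

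Other genes of the lineage were read from the fit across all genes, for clusters 0, 6 and 9 against the rest. Among forebrain factors that specify GABAergic cells, 18 of 18 were called higher, 12 without cluster 11 and 5 without the E13.5 library, against 20%, 11.7% and 6.11% of all genes (the last in either direction). Examples without cluster 11 were the transcription factors Sp8 (log2 0.93, SE 0.20) and Six3 (0.68, SE 0.17). Of 5 genes of GABA uptake and breakdown, 4 were called higher, and 2 higher and 1 lower without cluster 11. The higher included Slc6a11, a plasma membrane GABA transporter (1.33, SE 0.15), while the catabolic enzymes Abat and Aldh5a1 had log2 differences of 0.36 (SE 0.14) and 0.41 (SE 0.19). Hindbrain and spinal GABAergic factors gave 9 of 12 higher and 1 lower, 6 higher without cluster 11 and 2 called without the E13.5 library, with Sox14 at 1.06 (SE 0.28) and Ptf1a at 0.92 (SE 0.31). For interneuron subtype genes the counts were 8 of 12, 4 without cluster 11 and 2 without E13.5, and Calb1 and Penk were at 0.59 and 0.56 (SE 0.25 each), not called without cluster 11.

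Genes of other neural classes were called as well. Glutamatergic genes gave 14 of 16 higher, also without cluster 11, led by Neurod6 (log2 2.51, SE 0.32) and Fezf2 (2.20, SE 0.20), factors of cortical projection neurons, and Slc17a6, which loads glutamate into vesicles (1.88, SE 0.15). Pan-neuronal genes gave 11 of 11 in both fits, among them Nefm (1.53, SE 0.14) and Tubb3 (1.51, SE 0.15), and progenitor genes 8 of 10, 6 higher and 1 lower without cluster 11 and 5 called without E13.5, among them Fabp7 (2.27, SE 0.29) and Sox1 (2.06, SE 0.18). Median log2 differences without cluster 11 were 0.74 over the 8 members, 0.53 over forebrain GABAergic factors, 1.14 over glutamatergic genes, 1.10 over pan-neuronal genes and -0.01 over all genes. The paralogues Dlx3 and Dlx4, with roles in skin and placenta, gave no call. Markers of other tissues gave 2 mesenchyme, 1 muscle, 1 epithelial and 1 endothelial gene of 6 each higher, near the background of 20%, with 1 mesenchyme and 1 epithelial gene lower, and erythroid genes 5 of 6 lower, where 10.1% of all genes were lower. Without cluster 11 the counts were 0 higher and 1 lower for mesenchyme, 1 and 0 for muscle, 0 and 2 for epithelial, 0 and 1 for endothelial and 0 and 2 for erythroid genes.

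Against cluster 0, the same lists in cluster 9 differed in other ways. Of the 10 progenitor genes, 9 were lower in cluster 0 (background 1.58%), with Pax6 lower by 1.66 (SE 0.22) and Fabp7 by 2.71 (SE 0.51) on the log2 scale. Of the 16 glutamatergic genes, 4 were lower in cluster 0, Fezf2 among them by 1.96 (SE 0.35), and 1 was higher, Slc17a6 by 1.33 (SE 0.29, edgeR adjusted p = 0.00612).

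In single nuclei, a fragment at a gene is a matter of depth, so each nucleus was thinned to 10000 fragments. At E13.5, 52.9% of 87 cluster 0 nuclei held a Gad1 fragment (95% exact binomial interval 41.9 to 63.7) and 55.2% a Gad2 fragment (44.1 to 65.9). At E15.5 the shares of 164 nuclei were 50.0% (42.1 to 57.9) and 39.6% (32.1 to 47.6). In cluster 5 at E13.5, with high erythroid markers, the same shares were 10.0% and 15% of 160 nuclei, below those of cluster 0. Cluster 5 serves as a low reference and not as the level of the rest. Summed over the members it held 136 to 195 CPM. Clusters 8 (154 to 186 CPM) and 10 (168 to 189 CPM) lay near it, and clusters 1 (196 to 322), 3 (236 to 280) and 7 (165 to 264) reached higher. Median depths before thinning were 63587 and 62521 fragments in clusters 0 and 5 at E13.5, and untouched the Gad1 shares were 88.5% and 33.7%. Without thinning, the Gad1 shares of clusters 6 and 9 at E13.5 were 72.4% and 74%, nearer to cluster 0 than to cluster 5. Median depths in clusters 6 and 9 were 67887.5 and 71843 fragments, and both intervals overlapped that of cluster 0 (79.9 to 94.3). An untouched share counts a nucleus once however many fragments it holds, and so can hide a difference in level. In CPM, Gad1 at E13.5 stood at 132 in cluster 0, 50.1 in cluster 6 and 71.6 in cluster 9. For Gad2 the untouched shares were 92.0% in cluster 0, 61.8% in cluster 6 and 64% in cluster 9, where the interval of cluster 0 lay above both others. Nuclei of 1 library are not replicates, so these intervals are a description. At Lhx6 the share was 24.1% (15.6 to 34.5) in cluster 0 against 14.4% (9.34 to 20.8) in cluster 5, intervals that overlap.

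Fragments in at least 3 of the 8 genes were found in 42.5% (32.0 to 53.6) of the E13.5 nuclei of cluster 0 and 29.9% (23.0 to 37.5) of its E15.5 nuclei, against 7.89% and 6.38% in cluster 6, 16% and 10.5% in cluster 9, 8.87% and 10.3% in cluster 1 and 3.75% and 10.0% in cluster 5, the last of 10 nuclei. This share was highest in cluster 0 at both stages among these clusters and moves with depth, as at 20000 fragments per nucleus it was 55.3% in cluster 0 at E15.5. A Gad1 or Gad2 fragment together with one at a Dlx gene was seen in 44.8% and 31.7% of cluster 0 nuclei. Without thinning, this joint share at E13.5 was 92.0% in cluster 0, 76.3% in cluster 6, 80.0% in cluster 9 and 40.4% in cluster 5.

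**Figure D4:**
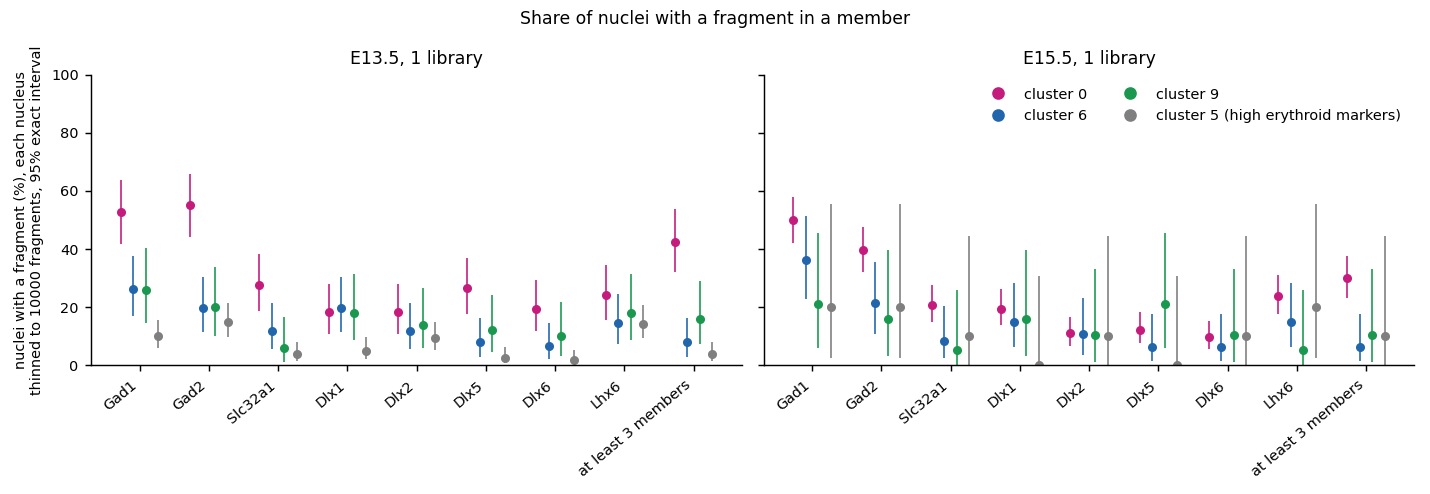
Share of nuclei in percent with at least 1 fragment at a gene, or at 3 or more of the 8 genes, after thinning each nucleus to 10000 fragments, at E13.5 (left) and E15.5 (right), with 95% exact binomial intervals. Cluster 0 reaches 52.9% and 55.2% at Gad1 and Gad2 at E13.5, while cluster 5, which has high erythroid markers, gives a low reference of 10.0% and 15%.

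Within cluster 0 the fragments of different members were weakly related across thinned nuclei, which share a library and are no replicates. At E15.5 (164 nuclei) Spearman's rho was 0.30 between the 3 GABA genes and Dlx1, Dlx2 and their span, 0.31 with Dlx5, Dlx6 and their span, and 0.32 between both Dlx pairs. At E13.5 (87 nuclei) these were 0.15, 0.075 and 0.12. For Lhx6 and the GABA genes rho was -0.0049 at E15.5 and 0.30 at E13.5. In counts this sparse, with means of 0.322 to 2.21 fragments per nucleus, such values are given as a description only.

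Over the 24 sums, log2(CPM + 1) of Gad1 and Gad2 had a Pearson r of 0.88, Dlx5 and Dlx6 of 0.87 and Dlx1 and Dlx2 of 0.83, whereas Lhx6 had r between -0.28 and 0.18 with the other 7 genes and Slc32a1 between 0.16 and 0.33. The sums share libraries and include cluster 11, which had no fragments at Gad1, Gad2, Dlx1, Dlx5 and Dlx6 and 1 at Dlx2. That sum held 8 fragments at Slc32a1 and 33 at Lhx6. How far it sets these r values, or the profiles named next, was not tested. The lower r of Slc32a1 thus does not show that it departs from Gad1 and Gad2. Among 17302 other genes with a mean of at least 5 CPM, the profiles most like the mean of the 8 members were those of Phactr1 (r = 0.92), Rcan2 (0.91), Dpysl3 (0.91), Fez1 (0.90) and Tnfsf11 (0.90), and those most like Lhx6 were Cyp2c38 (0.75), Ehd3 (0.66) and Map1lc3a (0.62).

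Between E13.5 and E15.5, the levels of most members were lower in cluster 0, with 1 library per stage and so no test. Summed over the 8 genes, the ratio of E15.5 to E13.5 CPM in cluster 0 was 0.797 (95% counting interval 0.753 to 0.843), from 557 to 444 CPM. Dlx5 had the lowest ratio at 0.574 (0.460 to 0.716), then Dlx2 at 0.642, Dlx6 at 0.679, Gad2 at 0.684, Dlx1 at 0.685 and Slc32a1 at 0.759, all with intervals under 1. Gad1 at 1.05 (0.942 to 1.18) and Lhx6 at 1.01 (0.843 to 1.22) did not. The Dlx spans had ratios of 0.668 (0.547 to 0.816) for Dlx1/Dlx2 and 0.575 (0.474 to 0.698) for Dlx5/Dlx6. Over all genes the median ratio in cluster 0 was 1.01, and 90% of genes lay between 0.626 and 1.56, a range that holds all members but Dlx5.

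In cluster 6 the summed ratio was 1.28 (1.14 to 1.43), with Gad1 at 1.47 (1.17 to 1.86) and Gad2 at 1.52 (1.17 to 1.97) and the other 6 genes with intervals that cover 1. A single nucleus of the E15.5 sum, with 4.59% of its fragments, held 35 of the 133 Gad1 and 18 of the 110 Gad2 fragments. Without it, a choice made after the data were seen, the ratios were 1.13 (0.875 to 1.46) for Gad1, 1.33 (1.01 to 1.74) for Gad2 and 1.15 (1.02 to 1.30) in sum. Of all genes 90% lay between 0.596 and 1.64 there, a range that holds all 8 members. Cluster 9 gave 0.710 (0.601 to 0.834) in sum, with Dlx1 at 0.446 (0.250 to 0.750), Dlx2 at 0.490 (0.296 to 0.776), Lhx6 at 0.569 and Gad1 at 0.694. A single E15.5 nucleus, with 12% of the fragments of that sum, held 21 of the 44 Gad1 fragments, and without it the ratios were 0.414 (0.255 to 0.642) for Gad1 and 0.614 (0.510 to 0.736) in sum. In cluster 9, 90% of all genes lay between 0.482 and 1.87, a range that leaves out Dlx1 with that nucleus and Gad1 without it. At E12.5, with 11 nuclei in clusters 0 and 9 and 5 in cluster 6, the Dlx5/Dlx6 span stood at 51 CPM in cluster 0, near its E13.5 value of 56.9, and Dlx6 at 6.18 CPM rested on 4 fragments.

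**Figure D5:**
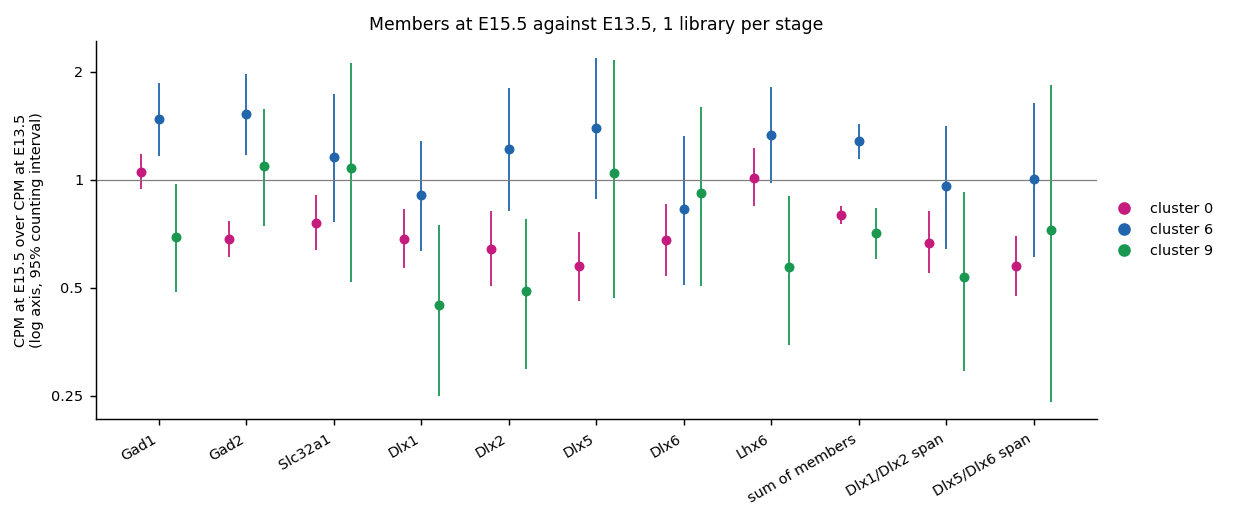
Ratio of CPM at E15.5 to CPM at E13.5 on a log axis for each gene, the sum of the 8 genes and both Dlx spans in clusters 0, 6 and 9, 1 library per stage, with 95% counting intervals. The sum lies at 0.797 in cluster 0, 1.28 in cluster 6 and 0.710 in cluster 9.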

How the data were processed

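The authors mapped the 10x Single Cell ATAC libraries with Cell Ranger ATAC 2.0.0 to mm10 and deposited a fragment file per library, in which each line is 1 unique fragment, with duplicates collapsed and ends shifted to the Tn5 insertion, and with a count of its read pairs. A deposited table of 1879 nuclei gave the count of unique fragments, the library and the authors' cluster number (Seurat 4.1.0 and Signac 1.6.0, per the labels and the study's methods), and 20 other columns of it were not used.

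Here unique fragments overlapping gene windows, promoters and intergenic spans of 2 to 30 kb (GENCODE M21) were counted for each nucleus of the table, each fragment once per feature, and summed by cluster and library. Of 21938 coding genes, 91 protocadherin (Pcdh) and Ugt genes, 228 longer than 500 kb and 26 of repeated symbol were left out. CPM divides by fragments summed over the 21593 gene windows. Clusters 2 and 4, of low depth, were left out, and sums needed 10 nuclei. The 24 sums, 1 to 3 libraries a cluster, were tested with edgeR 4.0.16 (quasi-likelihood, TMM, filterByExpr, library as block, Benjamini-Hochberg adjustment, threshold 0.05), and with DESeq2 1.42.0 as an alternative, in R 4.3.3. The rest is the equally weighted mean of clusters 1, 3, 5, 7, 8, 10 and 11. The fit was tested on simulated counts. Libraries held 9402554, 87687839 and 53120243 fragments, of which 91.5%, 76.4% and 74.4% were in nuclei of the table.

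The study describes clusters obtained by integration with the spatial profiles, and the sources do not say whether the deposited numbers are those. The authors' clusters rest on these same fragments. So p-values describe the spread between libraries and are no independent test of the classes. Members and gene lists were chosen with earlier results of these data known. Named genes of a list are up to 4 called ones with the largest log2 fold change, of which some are not reported here. Linked barcodes (5, 32 and 138 nuclei by library, which share over 10% of fragments with another) were collapsed in an alternative, and no doublet caller was run. Intervals are exact (Poisson, binomial or ratio of counts) at 95% and cover counting error only. Sequences are from mm10 and, for promoters, RefSeq's table on GRCm38.p6. The alternatives are given at the end.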

Additional observations from a re-analysis of the deposited data

Results flagged for a closer look

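From E13.5 to E15.5 the summed members and Gad2 moved in opposite directions in clusters 0 and 6, with 1 library per stage, so that the difference was not tested. The ratio of summed CPM was 0.797 in cluster 0 and 1.28 in cluster 6, and that of Gad2 was 0.684 in cluster 0 and 1.52 in cluster 6. Without 1 nucleus of cluster 6 at E15.5 the values there were 1.15 in sum and 1.33 for Gad2. Barcodes linked to another by shared fragments made up 1 of 87 nuclei of cluster 0 at E13.5, 4 of 172 at E15.5 and 0 in cluster 6.

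Fragments outside the comparisons also held the members. Barcodes absent from the nuclei table held 501 Gad1 fragments of 13585423 at E15.5, or 36.9 per 1000000 fragments, against 27.6 at E12.5 and 30 at E13.5. The summed level of the 8 members was 273, 390 (95% interval 348 to 436, from 307 fragments) and 270 CPM in cluster 2 (from the earliest stage to the latest), and 449, 359 and 301 CPM in cluster 4 (8, 13 and 15 fragments). Both clusters were left out for their low depth. At E13.5, however, cluster 2 had a median of 11147 fragments per nucleus (105 nuclei), near the 12478 of cluster 11 (35 nuclei), which was kept.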

How the results depend on the processing

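Of 322 counts of called members recomputed under alternatives, 263 stayed within 1.5 times, as did 32 of 40 list counts, and no direction of a called value was reversed. The causes of the moves were not tested unless stated. For these fits, shares over all features are given only where stated above. Bodies of cluster 0 against cluster 6 gave 1 call with DESeq2, 1 with no library block and 2 without nuclei above the 95th percentile of fragments. Promoters in that contrast gave 0 with DESeq2, and 2 with at least 20 nuclei, with at least 5 nuclei or without the deepest nuclei, and promoters of cluster 0 against cluster 9 gave 1 with DESeq2. Promoters of cluster 9 against the rest gave 1 under those same 3 choices. The spans of cluster 6 against the rest gave 1 with at least 20 nuclei, at least 5 nuclei, 1 barcode per linked group or at least 3000 fragments. With at least 5 nuclei, spans of cluster 0 against cluster 6 gave 1 and bodies of cluster 6 against the rest 5. Without clusters 3, 5 and 11 the counts against the rest were 4 bodies for cluster 0, 1 body and 0 promoters for cluster 6, 2 bodies, 1 promoter and 0 spans for cluster 9, and 2 promoters and 0 spans for clusters 0, 6 and 9. Without cluster 11, a choice made after the data were seen, they were 1 body for cluster 6, 1 body, 1 promoter and 0 spans for cluster 9, 2 promoters for clusters 0, 6 and 9, 6 for the hindbrain and spinal list and 4 for the interneuron list. With the deepest E12.5 nucleus of cluster 0 also left out, they were 1 for cluster 6, 2, 1 and 0 for cluster 9, and 2 promoters.

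Leaving out 1 library at a time gave, for bodies against the rest, 3 to 7 members in clusters 0, 6 and 9, 3 to 7 in cluster 0, 0 to 3 in cluster 6 and 0 to 5 in cluster 9, and 0 to 3 for cluster 0 against cluster 9. For promoters it gave 1 to 5, 2 to 6, 0 to 1 and 0 to 1 in the same order, with 0 to 2 for cluster 0 against cluster 6 and 0 to 3 against cluster 9. For spans it gave 0 to 2, 1 to 2, 0 to 1 and 0 to 1, and 0 to 1 for cluster 0 against cluster 9. The lists ranged over 5 to 18 forebrain, 2 to 10 hindbrain and spinal, 2 to 9 interneuron and 5 to 8 progenitor genes. Each lowest count came without E13.5, and for bodies of cluster 0 against cluster 9, promoters of cluster 6 against the rest, promoters of cluster 0 against clusters 6 and 9 and spans of cluster 6 it came without E15.5 as well. Leaving out E13.5 also leaves out cluster 11, whose other sums fell short of 10 nuclei.

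The stage ratio of 0.797 in cluster 0 became 0.701 per 1000000 promoter fragments and 0.576 at promoters alone. The share of E15.5 cluster 0 nuclei with at least 3 members moved with depth, from 8.19% at 5000 fragments to 55.3% at 20000 and 84.9% without thinning. No paired analysis was possible because each stage has 1 library with 1 replicate number, and the library already is the block of the test. Depth limits E12.5 most, with 11 nuclei in cluster 0.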
